A study of Rattus norvegicus with 30 samples.

Results

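The comparison described here sets rat hepatocytes exposed to 5000 µM acetaminophen for 24 h against hepatocytes exposed to 500 µM for the same time. Its members are the 10 arrays whose titles name these doses at 24 h, 5 for each, out of 30 arrays in 6 groups of dose and time. Each of 14217 genes is represented by its brightest probe set, and the 8531 brightest genes were tested. All cells were male Sprague Dawley primary hepatocytes bought frozen from 1 supplier, plated on collagen, overlaid with Matrigel and dosed on day 3 of culture. The vehicle wells, used as the reference level at each time, received 1% DMSO, and the labels describe the dosing solutions of the drug as made in DMSO as well. The labels call the 5 wells of a group independent cultures, but no donor animals are named, and the p-values reflect well-to-well spread alone. The strain, the sex, the plating and the harvest times were shared by both doses.

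Acetaminophen is an analgesic that hepatocytes clear mainly by coupling it to glucuronic acid or sulfate. A smaller share is oxidised by cytochrome P450 enzymes, above all Cyp2e1 and Cyp1a2, to a reactive quinone imine that is trapped by glutathione. When glutathione runs out, the quinone imine binds proteins and the cell is injured, which makes the dose the best known determinant of its effect on liver.

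At 24 h, the higher dose gave lower levels of genes for amino acid breakdown, bile acid synthesis, fatty acid synthesis and drug conjugation. Genes of the amino acid response controlled by ATF4 were lower too, and Hamp, Hexim1 and several histone genes were higher. In limma, 2659 of 8531 genes (31.2%) passed a Benjamini-Hochberg adjusted p of 0.05, which is what "called" means below. Differences are log2 signal at 5000 minus 500 µM unless another pair is named, with their standard error after ± where it is given. Of these, 1437 (16.8% of the tested genes) were higher at 5000 µM and 1222 (14.3%) were lower. The median log2 difference over all tested genes, 5000 minus 500 µM, was 0.02. Changes of at least 2-fold were mostly downward, with 67 called genes lower and 21 higher. All 5 arrays of one dose lay beyond all 5 of the other for 1657 genes (19.4%). The split depended on scaling: 592 genes were called higher and 1224 lower with each array centred on its own median, 1290 and 1310 with centring on the median of tested genes, 1434 and 1350 after quantile normalization, and 1553 and 1166 with the actin ratio as a covariate.

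RNA integrity and labelling were gauged from actin control probe sets, as the log2 of 3' over 5' signal, which was 1.61 ± 0.33 (SD, n = 5) at 500 µM and 1.37 ± 0.22 at 5000 µM (difference -0.24, 2-sided exact permutation p = 0.278). The arrays of the series fell on both sides of a gap in this ratio between 1.544 and 1.735, with 2 of the 500 µM and 4 of the 5000 µM arrays below it. Within those 6 arrays, 1948 genes were called, of which 1700 were also called in the same direction with all arrays. The summed signal of the 15 hepatocyte markers ranged from 671082 to 813106 at 500 µM and from 659343 to 752509 at 5000 µM. Markers of other liver cells were mostly dim. Of 21 Kupffer cell and leukocyte markers 18 lay below the tested range, which ends at a geometric mean of 469.2 over all arrays, as did 12 of 16 for stellate cells and fibroblasts, 10 of 12 for sinusoidal endothelium and 6 of 8 for cholangiocytes. The summed Kupffer and leukocyte signal was 29908 to 34787 at 500 µM and 22281 to 24882 at 5000 µM, and Cd14 was the only one of its 3 tested members called (-0.67). Most of this sum came from the 3 tested members, whose median difference was -0.04. The 18 dim members summed to 3456 to 4274 at 500 µM and 3037 to 3692 at 5000 µM, ranges that overlap. The stellate sum was 8472 to 9747 against 6989 to 9701, the endothelial sum 2791 to 3150 against 2302 to 2642, and the cholangiocyte sum 9736 to 12375 against 10526 to 12003. The part of these cells in the results was not tested, and in bulk RNA fewer cells of a type and less RNA per cell cannot be told apart.

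**Figure D1:**
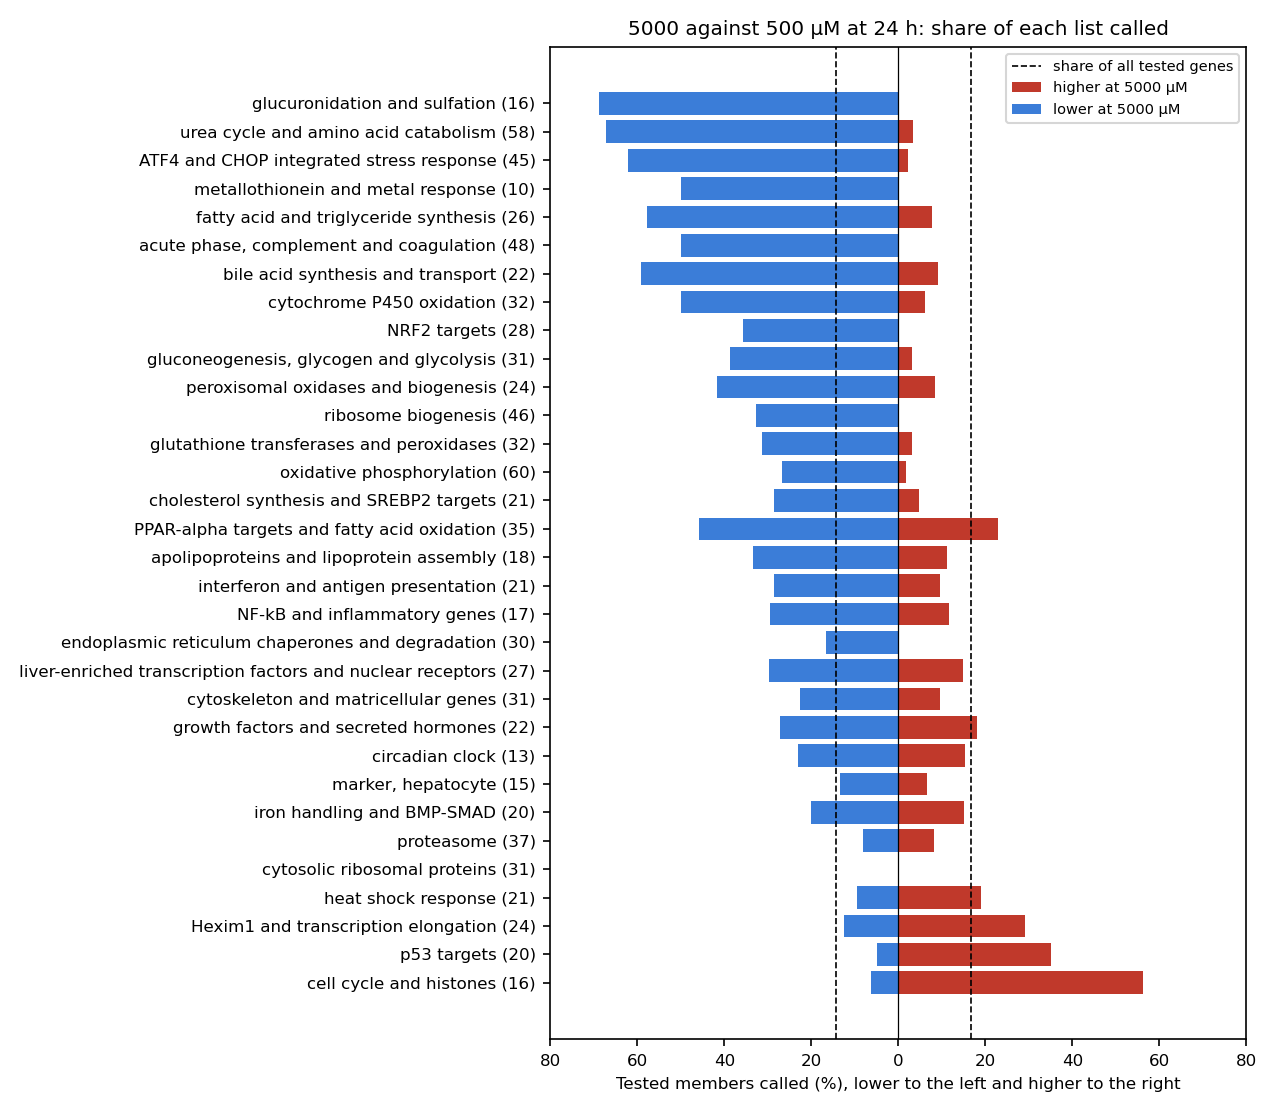
For each gene list with at least 5 tested members (number in brackets), bars give the percent of members called lower (left, blue) or higher (right, red) at 5000 than at 500 µM at 24 h; dashed lines mark the shares over all tested genes, 14.3% lower and 16.8% higher. Glucuronidation and sulfation, amino acid catabolism and the ATF4 list reach furthest to the left, and cell cycle and histones furthest to the right.

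Most genes of fatty acid oxidation were higher than vehicle at 500 µM, and 16 were lower at 5000 than at 500 µM. PPAR-alpha is a nuclear receptor that fatty acids activate and that drives peroxisomal and mitochondrial fatty acid oxidation in liver. Of its 35 tested targets and oxidation genes, 16 were lower and 8 higher at 5000 than at 500 µM, with a median difference of -0.12 against 0.02 over all genes. With the arrays centred on their medians, 14 were lower and 4 higher. Against the shared vehicle arrays, 26 of the 35 were higher at 500 µM (median 0.34) and 16 were higher at 5000 µM (median 0.17), where 244 of all tested genes (2.86%) and 3252 (38.1%) were called. The count of 26 was 21 to 26 when 1 array was left out, but 15 after median centring, 14 within the arrays below the ratio gap and 9 within those above. The 244 calls over all genes became 151 without replicate 4 and 116 without replicate 5 of 500 µM, 155 without replicate 1 and 156 without replicate 2 of vehicle.

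Fabp1, the liver fatty acid-binding protein, had signals of 8744, 8855, 9649, 9848 and 9981 at 500 µM and 2511, 2528, 2601, 2913 and 2950 at 5000 µM. The vehicle arrays, at 6248, 6285, 6630, 7089 and 7274, lay between the doses without touching either. Its difference between doses was -1.80 ± 0.06 (SE) on the log2 scale, or 3.49-fold lower at 5000 µM (limma, adjusted p = 2.1e-20). Ehhadh, which catalyses the middle steps of fatty acid oxidation in peroxisomes, gave 2866, 3818, 4279, 4369 and 4748 at 500 µM and 1586, 1699, 1805, 1914 and 2037 at 5000 µM, with no overlap. Its vehicle arrays, at 1536, 1809, 1914, 2239 and 2289, spanned those of the higher dose. Ehhadh differed by -1.14 ± 0.12 between doses (adjusted p = 1.12e-08), with 500 µM at 1.03 and 5000 µM at -0.10 relative to vehicle (adjusted p = 0.539 for the latter). The fatty acid omega-hydroxylase Cyp4a1 measured 14853, 15185, 15791, 16480 and 18215 at 500 µM and 8068, 8539, 8598, 9290 and 9420 at 5000 µM. It was lower, at -0.87 ± 0.11 at 5000 µM (adjusted p = 2.76e-07) but was still above vehicle (0.32 ± 0.11, adjusted p = 0.0237), whose arrays, at 4912, 6805, 7150, 8463 and 8518, overlapped the higher dose.

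Other members that were lower at 5000 µM included the pantetheinase Vnn1 (-0.81), the omega-hydroxylase Cyp4a3 (-0.77) and the peroxisomal dienoyl-CoA reductase Decr2 (-0.63). These and the members named next were picked after their values were seen. A smaller group went the other way. Txnip, a thioredoxin-binding regulator of glucose uptake, was higher by 0.71, Cpt1a, which admits long-chain fatty acids to mitochondria, by 0.68, the lipoprotein lipase inhibitor Angptl4 by 0.56, and the pyruvate dehydrogenase kinase Pdk4 by 0.47. Relative to vehicle, Pdk4 stood at 0.84 and 1.31 at the lower and higher dose, Angptl4 at 0.59 and 1.15, and Cpt1a at 0.10 and 0.78. The list therefore held members that reached their highest level at 500 µM and members that reached it at 5000 µM.

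**Figure D2:**
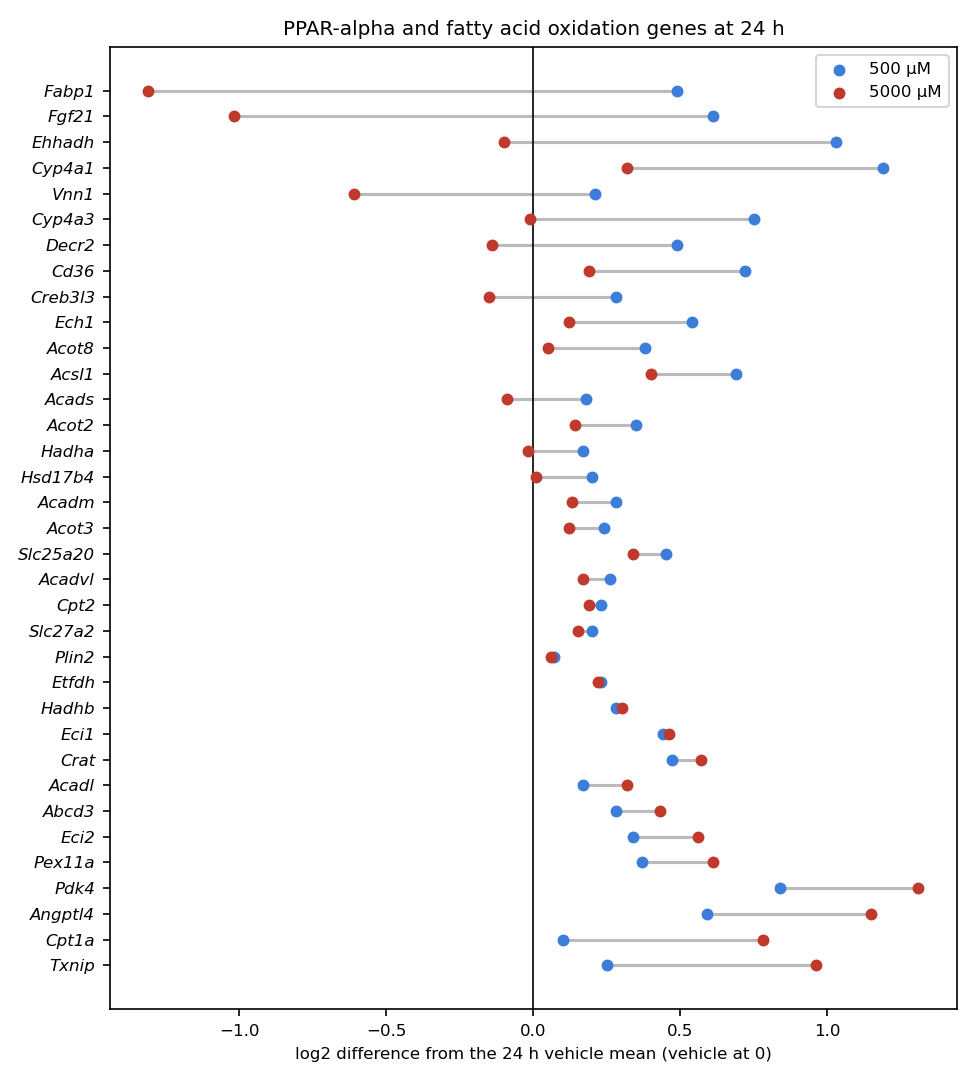
Log2 difference from the mean of the 24 h vehicle arrays for the 35 PPAR-alpha and fatty acid oxidation genes at 500 µM (blue) and 5000 µM (red), sorted by the difference between doses, with a grey line joining the doses of a gene. Fabp1 and Fgf21 cross the vehicle line, whereas Cpt1a, Txnip, Angptl4 and Pdk4 lie further to the right at the higher dose.

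The region before the Fabp1 start is shown because Fabp1 had the largest fall of the list and is a known direct PPAR-alpha target. The DR1 motif, 2 receptor half-sites AGGNCA spaced by 1 base, was searched on both strands in RefSeq promoters of rat build GRCr8, from 250 bases before to 50 after the start. The match, in capitals, lies on the opposite strand from -77 to -65 relative to the start.
Fabp1, chr4:104749090-104749339 on the plus strand: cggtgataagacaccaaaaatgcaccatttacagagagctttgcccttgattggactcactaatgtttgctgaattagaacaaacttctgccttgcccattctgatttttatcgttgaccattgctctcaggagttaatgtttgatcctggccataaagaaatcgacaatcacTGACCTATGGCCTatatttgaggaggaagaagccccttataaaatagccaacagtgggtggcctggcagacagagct
Of the 30 list members with a promoter in that table, 1 (3.33%) held the motif, as did 113 of 27457 promoters of the table (0.412%).

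Of 8531 tested genes, 13 were called in opposite directions against vehicle at the 2 doses. The 6 of these whose smaller change was largest are named here, Fabp1 among them. They were chosen for their reversal, so it is given as a description. Fgf21, a hormone that liver secretes in fasting and amino acid shortage, read 3453, 3500, 3663, 3993 and 6396 at 500 µM, 2258, 2494, 2817, 2852 and 3053 in vehicle and 1157, 1169, 1240, 1465 and 1642 at 5000 µM. One 500 µM array was far above the other four, yet every 500 µM array was above every vehicle array and every 5000 µM array below. Its differences from vehicle were 0.61 and -1.02, and the doses differed by -1.63 ± 0.15. Wfdc3, which carries a protease inhibitor type domain, stood at 0.56 and -0.39 relative to vehicle, and the secreted proteoglycan Tsku at 0.54 and -0.38. Nnmt, which methylates nicotinamide, stood at 0.28 and -0.33. Lamc1, the laminin γ1 chain, was the one of these 6 that was below vehicle at 500 µM (-0.39) and above it at 5000 µM (0.35). The calls of Fabp1 and Tsku at 500 µM against vehicle held without any single array of these groups. That of Tsku was lost within the arrays below the ratio gap (difference 0.16, adjusted p = 0.609; above the gap 0.79, adjusted p = 0.0103) and after median centring (adjusted p = 0.0605). The calls of Fgf21, Nnmt, Wfdc3 and Lamc1 were each lost when some single array was left out. The highest adjusted p was 0.131 for Fgf21 and 0.176 for Nnmt, both without replicate 5 of 500 µM. It was 0.118 for Wfdc3 without replicate 2 of vehicle and 0.129 for Lamc1 without replicate 4 of 500 µM.

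Spc24, Ccn2 and Sult1c3 were among other named genes that were called at 500 µM against vehicle and lay near vehicle at 5000 µM. Spc24, a kinetochore protein, gave 3591, 4270, 4836, 4856 and 5498 at 500 µM against 1948, 2070, 2256, 2449 and 2490 at 5000 µM and 1884, 1959, 2395, 2462 and 2540 in vehicle. The 500 µM arrays were above all of the others, and the doses differed by -1.03 ± 0.16 (adjusted p = 4.48e-06). Ccn2, the connective tissue growth factor, had the reverse pattern with 4701, 4873, 5204, 5590 and 6089 at 500 µM, 9954, 10226, 10241, 10278 and 12411 at 5000 µM and 9740, 10058, 10905, 11292 and 11599 in vehicle. Its difference between doses was 1.01 ± 0.09 (adjusted p = 1.99e-10). The sulfotransferase Sult1c3 had means of 873 ± 132 in vehicle, 1601 ± 196 at 500 µM and 793 ± 112 at 5000 µM (SD, n = 5). Between 5000 µM and vehicle these genes differed by 0.00 ± 0.16, -0.01 ± 0.09 and -0.14 ± 0.12, with adjusted p of 0.997, 0.92 and 0.411, which does not show equal levels.

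Peroxisomal oxidases were among the genes that fell furthest. Of 24 tested peroxisomal genes, 10 were lower and 2 higher at 5000 µM, with a median of -0.14. Hao1, the glycolate oxidase, read 3421, 4185, 4420, 5402 and 5416 at 500 µM and 1199, 1206, 1225, 1238 and 1280 at 5000 µM. Its 5000 µM arrays were tightly grouped and far below the lower dose (-1.87 ± 0.13, adjusted p = 5.09e-13). Hao2, which oxidises longer 2-hydroxy acids, went from 3331, 3818, 4084, 4345 and 4841 to 933, 1028, 1152, 1356 and 1577 (-1.77 ± 0.12, adjusted p = 2.71e-13). Acox2, the oxidase of branched chains and bile acid side chains, was lower, at -1.29 ± 0.10, and the D-amino acid oxidase Dao at -0.70 ± 0.15. Catalase, Cat, which clears the peroxide these oxidases make, was at -0.11 and not called.

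**Figure D3:**
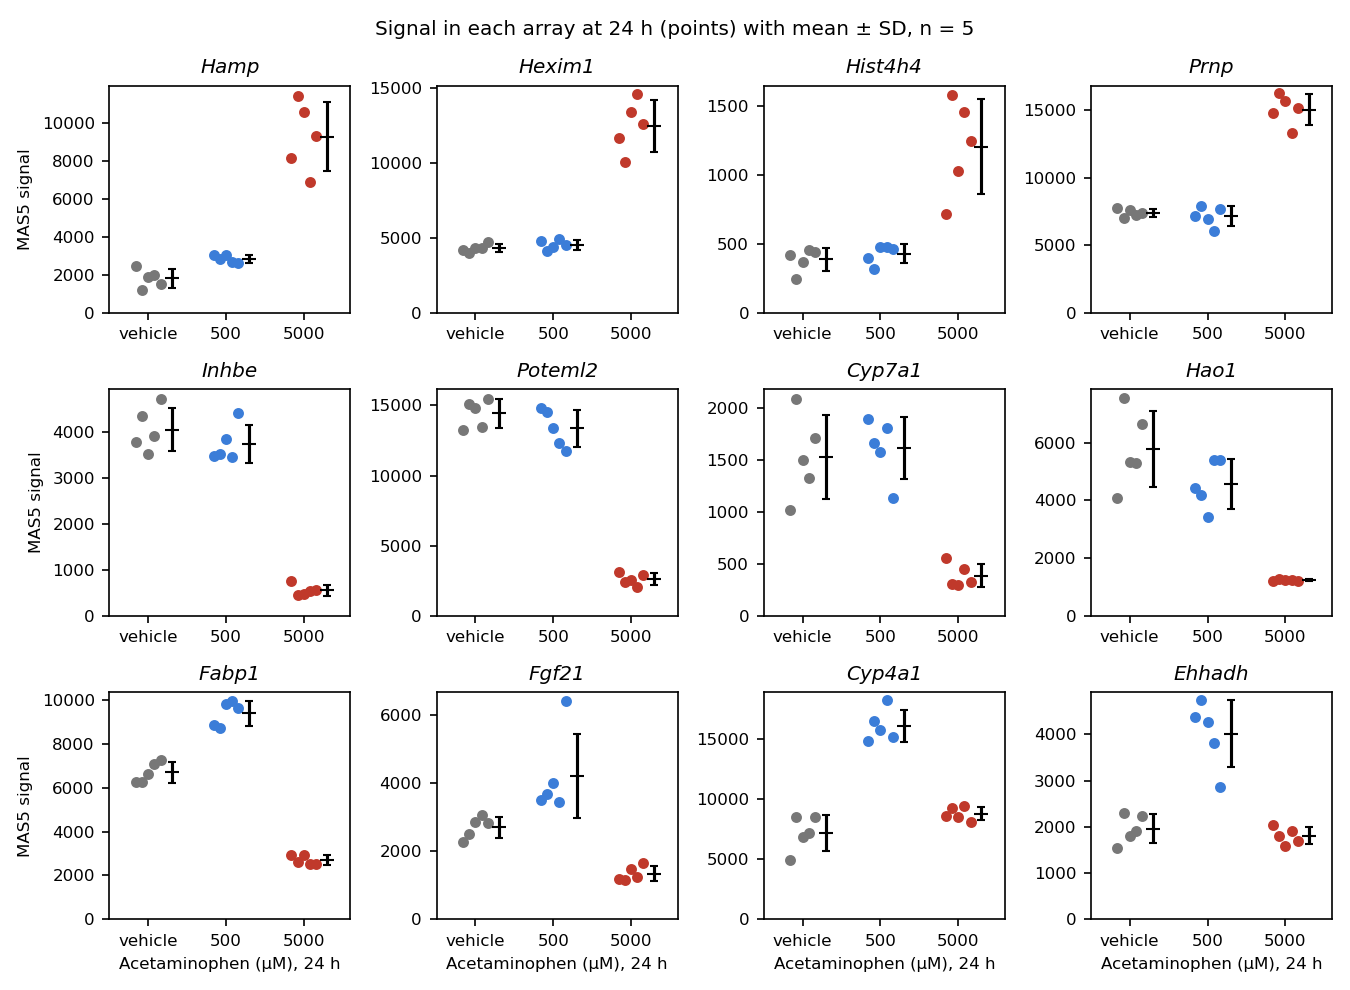
MAS5 signal of 12 genes in each 24 h array (points) with the mean and SD of the 5 arrays (black) for vehicle (grey), 500 µM (blue) and 5000 µM (red); axes start at 0. The upper 4 genes are higher at 5000 µM, the middle 4 are lower at 5000 µM with 500 µM near vehicle, and the lower 4 are higher at 500 µM than in vehicle.

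Amino acid catabolism was lower in 39 of 58 tested genes and higher in 2, with a median of -0.35. These enzymes feed amino acid carbon into glucose and ketone production and nitrogen into urea. Car5a, the mitochondrial carbonic anhydrase that supplies bicarbonate to the urea cycle, measured 4836, 4906, 5446, 5720 and 5932 at 500 µM and 1286, 1342, 1369, 1695 and 1861 at 5000 µM. Every 5000 µM array was far below the lowest 500 µM array, and the difference was -1.84 ± 0.10 (adjusted p = 5.06e-15). Aass, the first enzyme of lysine breakdown, read 5919, 8508, 8637, 8732 and 8880 and 1755, 2524, 2659, 3012 and 3175 (-1.65 ± 0.12, adjusted p = 1.65e-12). One array at each dose lay below the other four, but the groups did not overlap. Haao, of the kynurenine route of tryptophan, was lower, at -1.51 ± 0.10, and Hgd, which opens the ring of homogentisate in tyrosine breakdown, at -1.33 ± 0.06. In the urea cycle itself, Otc, ornithine transcarbamylase, was lower, at -0.79, while Cps1 (-0.11), Ass1 (0.05), Asl (0.14) and Arg1 (-0.12) did not pass the test, though Cps1 did, at -0.37, when its probe sets were averaged. The 2 members called higher were the glutaminase Gls2 (0.75) and the ornithine aminotransferase Oat (0.38), the latter not after median centring. Members named here beyond the 4 largest were picked after their values were seen.

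In glucose metabolism, 12 of 31 tested genes were lower and 1 higher, with a median of -0.10. Gys2, the liver glycogen synthase, had signals of 8198, 8407, 9293, 9347 and 9673 at 500 µM and 3004, 3192, 3194, 4160 and 4736 at 5000 µM (-1.32 ± 0.14, adjusted p = 5.95e-09). Tkfc, the kinase of triose metabolism from fructose, was lower, at -1.48 ± 0.13, but its other probe set gave -0.23 with an adjusted p of 0.523. Pck1, which commits oxaloacetate to glucose, was lower, at -1.01 ± 0.18, and Pklr, the liver pyruvate kinase of the opposite direction, at -0.93 ± 0.12. Eno1 (-0.11), Tpi1 (-0.06) and Pgk1 (-0.02), which glycolysis and gluconeogenesis share, were not called.

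Fatty acid and triglyceride synthesis was lower in large part. Of 26 tested genes for fatty acid and triglyceride synthesis, 15 were lower and 2 higher, with a median of -0.28. Thrsp, a lipogenic protein that responds to thyroid hormone and carbohydrate, measured 21884, 23169, 24031, 26556 and 30790 at 500 µM and 10615, 11636, 12636, 12926 and 13892 at 5000 µM. The arrays of the doses did not overlap (-1.03 ± 0.12, adjusted p = 3.07e-08). Nr1h3, the oxysterol receptor LXR-alpha, was lower, at -0.92 ± 0.08 and its target Srebf1 at -0.81. Fasn (-0.70) and Acaca (-0.71), which build palmitate, were lower, whereas the elongase Elovl2 was higher by 0.70. Scd2, a stearoyl-CoA desaturase, was lower, at -1.03 ± 0.17, with means of 327 ± 58 and 164 ± 51.1 that are both below the tested range, and its other probe sets gave 0.05, 0.53 and 0.27. The cholesterol synthesis list had 6 of 21 genes lower and 1 higher, with a median of -0.10. Its share of calls, 33.3%, was close to the 31.2% of all tested genes. Its largest falls were in Hsd17b7 (-0.52 ± 0.08), Fdps (-0.44 ± 0.08) and Fdft1 (-0.44 ± 0.07), and Srebf2, the factor that drives the pathway, was at -0.34 ± 0.08, a call lost when all of its probe sets were averaged. Among 18 genes for apolipoproteins and lipoprotein assembly, 6 were lower and 2 higher (median -0.08). Apoc4 (-0.60 ± 0.07), the plasma cholesterol acyltransferase Lcat (-0.53 ± 0.08), the lipid loader Mttp (-0.40 ± 0.08) and Apoc2 (-0.33 ± 0.06) led these, and Apoa1 (-0.01), Apoe (0.03) and Apoc3 (0.04) did not pass the test.

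Bile acid synthesis and uptake genes were mostly lower. Of 22 tested genes, 13 were lower and 2 higher at 5000 µM, and the list median was -0.46. Cyp7a1, whose hydroxylation of cholesterol sets the pace of bile acid production, read 1133, 1579, 1661, 1804 and 1892 at 500 µM and 296, 306, 326, 452 and 553 at 5000 µM. Every 5000 µM array was below every 500 µM array, and the difference was -2.08 ± 0.19 (adjusted p = 4.02e-10), although its 5000 µM mean of 387 ± 112 is below 469.2, the lowest mean over all arrays among tested genes, where size depends on the background. Vehicle, at 1017, 1321, 1502, 1708 and 2088, overlapped the lower dose. Downstream enzymes were lower too, including Cyp8b1 (-0.86), the reductase Akr1d1 (-1.04) and Baat, which conjugates bile acids with glycine or taurine (-1.06).

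The carriers that bring bile acids and organic anions in from blood were lower at 5000 µM. Slc10a1, the sodium-dependent carrier, gave 9449, 10136, 10736, 10960 and 12305 and 3875, 4498, 4528, 5030 and 5226 (-1.21 ± 0.11, adjusted p = 3.69e-10), with no overlap. Slco1a4 was lower, at -1.42 ± 0.18 and Slco2b1 at -1.16 ± 0.13, but the other probe set of Slco2b1 gave -0.18 with an adjusted p of 0.492. The canalicular bile salt pump Abcb11 was lower, at -0.73. The 2 called higher were exporters, Abcb4 for phospholipid (0.56) and Abcc4 on the blood side (0.49).

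The measured enzymes that handle acetaminophen itself did not move as a block. Ugt1a6, a glucuronosyltransferase of the fixed set, had no probe set with a single symbol and was not analysed. Cyp2e1, its main oxidising P450, was higher, at 7943, 8440, 8522, 9075 and 9165 under 500 µM and 11219, 12435, 13041, 13137 and 13167 under 5000 µM. The groups did not overlap, and the difference was 0.55 ± 0.11 (adjusted p = 0.000152). Cyp1a2 differed by 0.04 ± 0.12 (adjusted p = 0.821) and Sult1a1, a phenol sulfotransferase, by 0.00 ± 0.08 (adjusted p = 0.979), with overlapping arrays in both. Among 32 tested P450 and electron transfer genes, 16 were lower and 2 higher (median -0.27). The fatty acid hydroxylases Cyp4f4 (-0.86 ± 0.08) and Cyp4f1 (-0.82 ± 0.09) and the drug oxidases Cyp2c6v1 (-0.70 ± 0.06) and Cyp2j3 (-0.70 ± 0.10) fell furthest. The other probe set of Cyp2j3 gave -0.17.

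Glucuronidation and sulfation had the lowest list median, -0.53, with 11 of 16 tested genes lower and 0 higher in limma (1 higher at an unadjusted p under 0.05). Sult2a6, a hydroxysteroid sulfotransferase, read 1787, 1805, 1912, 1976 and 2789 at 500 µM and 144, 374, 396, 412 and 456 at 5000 µM. The difference was -2.61 ± 0.23 (adjusted p = 2.66e-10), with the 5000 µM mean below the tested range. Ugt2b1, a glucuronosyltransferase, went from 39489, 39919, 41576, 43648 and 45010 to 17646, 18271, 21502, 23521 and 23583 (-1.01 ± 0.10, adjusted p = 1.06e-09). Both groups were tight and far apart. Ugt2b10 was lower, at -1.03 ± 0.07, and the sulfate carrier Slc26a1 at -0.58. Ugdh, which makes the glucuronic acid donor, was at -0.06 and not called. Near-identical members of the Ugt, Sult, Cyp2 and Cyp4 families can share probes, so the values of single members are uncertain.

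Of 32 glutathione transferases and peroxidases, 10 were lower and 1 higher (median -0.10), a share of calls close to that of all genes. Gsta3 measured 17807, 18114, 18697, 19201 and 19220 at 500 µM and 10330, 10848, 11175, 11273 and 11578 at 5000 µM (-0.75 ± 0.05, adjusted p = 2.71e-13), without overlap. Gstm4 (-0.52 ± 0.05), Gstz1 (-0.49 ± 0.07) and Ggt1, which cleaves extracellular glutathione (-0.55 ± 0.14), were also lower. NRF2 is the factor that electrophiles release to raise antioxidant and glutathione genes. Of 28 tested NRF2 targets, 10 were lower and 0 higher in limma (1 higher at an unadjusted p under 0.05), with a median of -0.10. Calls made up 35.7% of these targets, against 31.2% of all tested genes. Several textbook targets did not pass the test. Nqo1, a quinone reductase, was 33439, 34859, 36069, 41127 and 41407 at 500 µM and 38338, 39043, 39647, 41129 and 42168 at 5000 µM, a difference of 0.10 ± 0.07 (adjusted p = 0.308). Gclc, Gclm and Gsr, which make and recycle glutathione, differed by 0.06 ± 0.06, 0.00 ± 0.07 and 0.01 ± 0.13, with adjusted p of 0.503, 0.984 and 0.964. Hmox1, heme oxygenase, was lower, at -0.38 ± 0.08 (adjusted p = 0.00037). The largest falls of the list were in Akr1b8 (-0.76 ± 0.13), the malic enzyme Me1 (-0.51 ± 0.09, with another probe set at -0.20), the cystine carrier Slc7a11 (-0.55 ± 0.10) and Trib3 (-0.92 ± 0.15), the last 2 of which are also on the ATF4 list.

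Most genes of the ATF4 response were lower. ATF4 is the factor translated when amino acids or endoplasmic reticulum folding fail, and with CHOP, the product of Ddit3, it raises genes for amino acid uptake, amino acid synthesis and tRNA charging. Of 45 tested genes of this response, 28 were lower and 1 higher at 5000 µM, with a median of -0.33. Inhbe, the β subunit of activin E, a liver-secreted hormone, had the largest fall of all called genes. It read 3443, 3463, 3517, 3843 and 4395 at 500 µM and 453, 467, 537, 556 and 761 at 5000 µM, with vehicle at 3520, 3766, 3898, 4342 and 4708. The lower dose overlapped vehicle, and the higher dose was 6.82-fold below the lower (-2.77 ± 0.12, adjusted p = 3.83e-18).

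The cationic amino acid carrier Slc7a1 went from 2515, 3374, 3412, 3534 and 4116 at 500 µM to 1316, 1374, 1462, 1477 and 1837 at 5000 µM (-1.18 ± 0.11, adjusted p = 7.24e-10), with no overlap. Its other probe sets gave -0.54 (adjusted p = 0.000249) and -0.47 (adjusted p = 0.634). Trib3, a pseudokinase that feeds back on ATF4, was lower, at -0.92 ± 0.15, with 4327, 5663, 6134, 7278 and 8318 at 500 µM and 2322, 3064, 3669, 3689 and 3834 at 5000 µM. The tRNA synthetases of the list that were called, such as Eprs1 (-0.63) and Tars1 (-0.42), were lower, as were the serine synthesis genes Psat1 (-0.50) and Phgdh (-0.45). Of the regulators, Atf4 was at -0.06 and Ddit3 at -0.12 ± 0.08 (adjusted p = 0.301), and Ddit3 was above vehicle at both doses (0.39 and 0.28, adjusted p = 0.00503 and 0.00758). The call of Ddit3 at 500 µM against vehicle was lost after median centring (adjusted p = 0.0696) and within the arrays below (0.11) or above (0.131) the ratio gap, where the difference was 0.38 to 0.40. Gdf15, a stress hormone and the 1 member called higher, was at 0.74. Asparagine synthetase, Asns, a textbook ATF4 target, did not pass the test (-0.15).

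The regions before the starts of Inhbe and Fgf21 are printed because these hormones had the largest falls of the list and their promoters carry the letters bound by ATF4 with its partners. The capitals mark TGATGNAA or its reverse complement, the composite element known as CARE, searched on both strands of the 300-base RefSeq promoters of build GRCr8.
Inhbe, chr7:65064520-65064769 on the minus strand: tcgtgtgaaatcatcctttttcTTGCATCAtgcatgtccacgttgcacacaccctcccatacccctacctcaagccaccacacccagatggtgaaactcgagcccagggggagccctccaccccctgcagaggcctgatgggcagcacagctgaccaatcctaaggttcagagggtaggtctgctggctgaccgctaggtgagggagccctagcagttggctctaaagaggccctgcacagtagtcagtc
Fgf21, chr1:105221377-105221626 on the minus strand: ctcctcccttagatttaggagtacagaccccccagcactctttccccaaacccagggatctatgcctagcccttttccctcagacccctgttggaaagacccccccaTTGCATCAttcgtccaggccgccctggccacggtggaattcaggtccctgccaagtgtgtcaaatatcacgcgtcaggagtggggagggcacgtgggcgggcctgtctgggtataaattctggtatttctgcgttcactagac
The match lies from -228 to -221 in Inhbe and from -143 to -136 in Fgf21, counted from the start. For comparison, 24-base windows follow for 7 other members with a match, those with the largest falls among members called lower. A window is also given for Nupr1, a stress-induced chromatin protein, which has a match and was not called (0.17). Members with a match and a smaller called fall (-0.33 to -0.29) are not printed, nor is another that was not called (-0.13). Nupr1 was called without replicate 2 of 5000 µM (0.20) or replicate 5 of 500 µM (0.23).
Slc7a1, chr12:11664450-11664473 on the plus strand: cgcgcggcTGATGAAAccggctcg
Trib3, chr3:161275539-161275562 on the minus strand: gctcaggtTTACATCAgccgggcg
Pck2, chr15:32997606-32997629 on the plus strand: cttcaaagTTACATCAgtatcctt
Chac1, chr3:126795956-126795979 on the plus strand: ctccgccgTTGCATCActcctgct
Iars1, chr17:15193661-15193684 on the minus strand: tgtcagtaTTGCATCAcctccaga
Herpud1, chr19:10614876-10614899 on the minus strand: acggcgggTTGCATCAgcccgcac
Tars1, chr2:62114814-62114837 on the minus strand: gcgtcccgTTGCATCAgctggtta
Nupr1, chr1:190645941-190645964 on the minus strand: aggccagaTTGCATCAgacagggc
All of these printed members but Slc7a1 hold the element in reverse orientation relative to the gene. The matches that are not printed lie in both orientations.

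Of 40 list members with a promoter in the table, 14 (35%) held the letters, against 1048 of 27457 promoters (3.82%). The list was assembled from known ATF4 targets, so that share describes the list and not these data. Among the 14 with a match, 12 were lower and the median difference was -0.46, with a range from -2.77 to 0.17. Among the 26 without one, 13 were lower, 1 was higher and the median was -0.22, with a range from -0.78 to 0.74. The difference between these 2 sets was not tested.

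**Figure D4:**
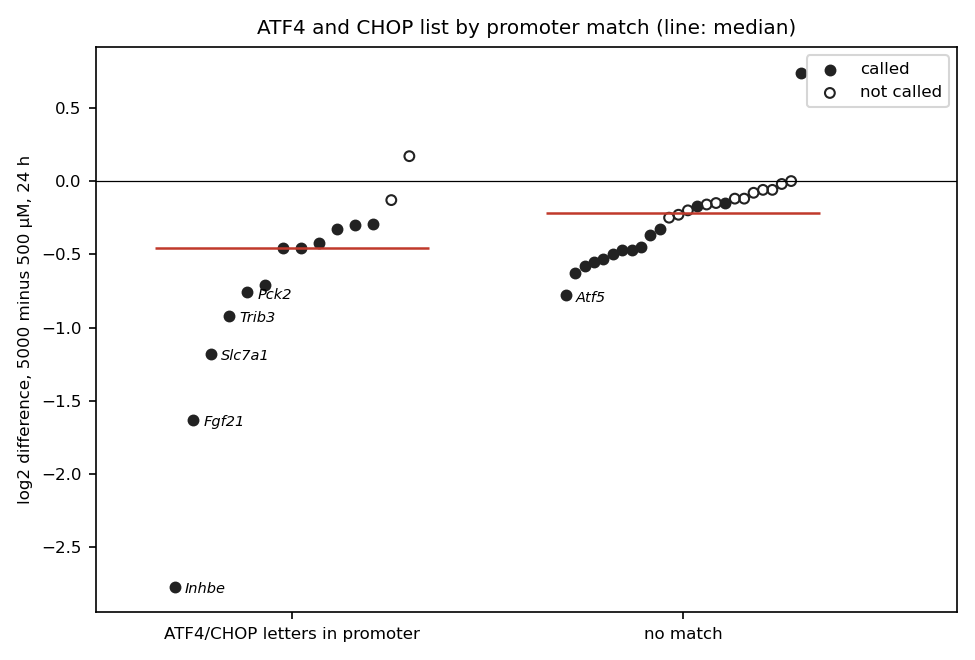
Log2 difference, 5000 minus 500 µM at 24 h, for 40 members of the ATF4 and CHOP list, split by whether TGATGNAA is found in the RefSeq promoter (14 members, left) or not (26, right). Filled points were called, open points were not, and the red lines are medians, -0.46 and -0.22. Inhbe and Fgf21 lie furthest down on the left, and Gdf15 is the one called point above 0.

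Endoplasmic reticulum chaperones and degradation genes, which respond to unfolded protein, were lower in 5 of 30 cases and higher in 0 in limma (0 at an unadjusted p under 0.05), with a median of -0.10. The share called lower, 16.7%, was close to the 14.3% of all tested genes called lower. Creld2 (-0.53 ± 0.08), Manf (-0.29 ± 0.06), Pdia4 (-0.24 ± 0.07) and Sdf2l1 (-0.23 ± 0.06) were among the 5, and the master chaperone Hspa5 was at -0.13 and not called, except without replicate 4 of 500 µM (-0.17). The Pdia4 call was lost within the arrays below the ratio gap. In the heat shock list, 4 of 21 genes were higher and 2 lower (median 0.03), and 1 was higher after median centring. Its share of calls, 28.6%, was close to the 31.2% of all tested genes. Hspa1a, the inducible cytosolic chaperone, measured 1745, 2013, 2083, 2127 and 2356 at 500 µM and 2336, 2369, 2445, 2669 and 3266 at 5000 µM, values that overlapped at their edges (0.34 ± 0.09, adjusted p = 0.00458). Stip1 (0.24 ± 0.08) and Chordc1 (0.25 ± 0.06) were called, but not after the arrays were centred on their medians. The mitochondrial chaperone Hspa9 was lower, at -0.44 ± 0.05, while its 3 other probe sets gave -0.15, 0.06 and 0.13.

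Hamp had the largest rise of all called genes. It encodes hepcidin, the hormone that blocks iron export and is switched on by bone morphogenetic protein signals through SMAD proteins and by inflammation. Its signal was 2619, 2649, 2811, 3021 and 3022 at 500 µM and 6893, 8112, 9309, 10583 and 11416 at 5000 µM, with vehicle at 1192, 1503, 1882, 1975 and 2470. The 3 groups formed a ladder in which none overlapped with the next. The doses differed by 1.69 ± 0.18, or 3.23-fold (adjusted p = 1.07e-08), and 500 µM was above vehicle by 0.69 ± 0.18 (adjusted p = 0.0313). That last call was lost without any one of replicates 1, 3, 4 and 5 of 500 µM or replicates 2 and 5 of vehicle (adjusted p = 0.0545 to 0.122), and also after median centring (0.0591) and within the arrays below (0.179) or above (0.386) the ratio gap. The upstream region is shown for its GC palindrome GGCGCC, the core letters of elements through which SMAD proteins act on this gene, found from -129 to -124 in GRCr8.
Hamp, chr1:95300272-95300521 on the minus strand: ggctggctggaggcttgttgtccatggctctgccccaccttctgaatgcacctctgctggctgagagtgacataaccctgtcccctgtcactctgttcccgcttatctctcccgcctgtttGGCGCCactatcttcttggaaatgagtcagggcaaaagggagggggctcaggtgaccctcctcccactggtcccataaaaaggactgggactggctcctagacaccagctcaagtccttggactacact
The same letters, which read alike on both strands, stood in 4 of 17 promoters of the iron and BMP list (23.5%) and in 3234 of 27457 (11.8%) of the whole table.

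The list of iron handling and BMP-SMAD signalling, Hamp included, had 3 of 20 tested genes higher and 4 lower (median -0.01). Its share of calls, 35.0%, was close to the 31.2% of all tested genes. Id2, a SMAD target, was higher by 0.35, a call lost after median centring and with the actin ratio as covariate, and Id1 (-0.22) and Atoh8 (-0.11), which BMP also raises, were not called. The ligand Bmp2 was higher by 0.49 ± 0.12, with the other probe set at -0.02. Tfr2, a sensor of transferrin iron, was lower, at -0.48 ± 0.10, and Tfrc, which takes up transferrin, at -0.40. For the iron importer Slc11a2, the brightest probe set gave -0.47 ± 0.11 and another gave 0.30 with an adjusted p of 0.0213, so its direction is unsettled, although it is counted among the 4.

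Among secreted hormones and growth factors, 4 of 22 tested genes were higher and 6 lower (median -0.04). Besides Inhbe and Fgf21, the list holds targets of growth hormone. Hsd3b5, a male-biased steroid enzyme of rodent liver, gave 10640, 11511, 12339, 12615 and 13193 at 500 µM and 1607, 2404, 2482, 2946 and 3166 at 5000 µM. The arrays were far apart (-2.29 ± 0.15, adjusted p = 3.05e-13). The prolactin receptor Prlr was lower, at -0.88 ± 0.17, though its other probe sets gave -0.30 and -0.17, and Igf1, which growth hormone drives, was lower, at -0.38.

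Hexim1 was higher in all 5 arrays at the higher dose. It holds the elongation kinase P-TEFb (Cdk9 with cyclin T) inactive, and its level rises when cells free that kinase. Signals were 4092, 4374, 4490, 4754 and 4879 at 500 µM and 10064, 11637, 12595, 13382 and 14584 at 5000 µM, and vehicle, at 4007, 4210, 4288, 4342 and 4718, overlapped the lower dose. The difference was 1.45 ± 0.09, or 2.74-fold (adjusted p = 1.63e-14). In its list of transcription elongation factors and immediate early genes, 7 of 24 were higher and 3 lower (median 0.14), and 4 were higher after median centring. Supt4h1, a subunit of the elongation factor DSIF, was higher by 0.46 ± 0.07, and the bromodomain protein Brd2 by 0.44. Lower members were Larp7 (-0.19), which stabilises the 7SK RNA, and the short-lived transcripts Myc and Klf6. The calls of Brd2 and Larp7 were lost when their probe sets were averaged. Myc read 5556, 5862, 5881, 6026 and 7764 at 500 µM and 3507, 3618, 3892, 3916 and 3998 at 5000 µM (-0.71 ± 0.09, adjusted p = 5.08e-07), and Klf6 was lower, at -0.56 ± 0.05.

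Of 16 tested members of the list of cell cycle and histone genes, 9 were higher, among them the histone genes Hist4h4, H2ax, H2az1 and H1f2, and 1 was lower, with a median of 0.42, the highest of any list. Another 21 members on the array were too dim to be tested, so the count covers the expressed part only. The mean that decides this includes the 5000 µM arrays, so a dim member could enter by being high there. That favours rises in this count and median. Hist4h4, a histone H4 gene, measured 320, 395, 466, 476 and 478 at 500 µM and 721, 1028, 1251, 1459 and 1582 at 5000 µM. The groups did not overlap (1.46 ± 0.20, adjusted p = 8.69e-07), but the 500 µM mean of 427 ± 68.9 is below 469.2. Hist4h4 means were also below it in vehicle (387 at 24 h, 369 at 48 h) and at 500 µM for 48 h (292). Hist4h4 was therefore tested only through its 5000 µM arrays (means 1208 at 24 h and 1256 at 48 h). H2ax, the histone marked at DNA breaks, was higher by 1.04 ± 0.10 and the microtubule regulator Stmn1 by 1.06 ± 0.11. H1f10 and Gmnn are not on the list. The linker histone H1f10 was higher by 1.08 ± 0.21, with a 500 µM mean of 440 ± 36.7, below 469.2. Gmnn, which restrains replication licensing, went from 467, 673, 695, 824 and 858 to 1158, 1344, 1442, 1628 and 1754 (1.08 ± 0.17, adjusted p = 1.33e-05), and its other probe set gave 0.89 (adjusted p = 0.352). Pcna, the replication clamp, was also higher (0.51). The mitotic gene Spc24, described above, was the 1 lower member, and Tyms (0.13) and Mcm7 (0.10) were not called.

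For p53 targets, 7 of 20 were higher and 1 lower (4 and 1 after median centring), with a median of 0.09 that turned to -0.04 when only the brightest 40% of genes were tested. The members called higher include repair genes, Ercc5 (0.51 ± 0.15) and Ddb2 (0.48 ± 0.10), and the death adaptor Pidd1 (0.43 ± 0.12), whose call was lost within the arrays below the ratio gap. The other probe set of Ddb2 gave -0.43 with an adjusted p of 0.495. The best known targets did not pass: Cdkn1a was at -0.23 and Mdm2 at -0.05.

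Of 46 tested genes for making ribosomes, 15 were lower and 0 higher in limma (2 higher at an unadjusted p under 0.05), with a median of -0.13. Calls made up 32.6% of these genes, against 31.2% of all tested genes. Nop58, a core protein of the small nucleolar particles, read 8560, 8744, 8845, 9027 and 10979 at 500 µM and 5179, 6377, 6658, 6711 and 7561 at 5000 µM, without overlap (-0.51 ± 0.08, adjusted p = 6.86e-06). Ltv1, an export factor of the small subunit, was lower, at -0.64 ± 0.12, the assembly factor Rrs1 at -0.55 ± 0.11 and the RNA polymerase I subunit Polr1b at -0.59 ± 0.14, the last of which lost its call within the arrays below the ratio gap. None of 31 cytosolic ribosomal proteins was called in limma (1 at an unadjusted p under 0.05), and their median was -0.01.

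The oxidative phosphorylation list had 28.3% of its 60 genes called, close to the 31.2% of all tested genes. Of the 60, 16 were lower and 1 higher, with a median of -0.07, and 9 were lower after median centring. Ndufs3 (-0.39 ± 0.07) and Ndufs7 (-0.31 ± 0.05), subunits of complex I, and Sdhb of complex II (-0.28 ± 0.05) led them, and Ndufb10 was higher (0.28 ± 0.05) except after median centring. The proteasome list had 3 of 37 genes higher and 3 lower (median 0.00, with 0 and 1 after median centring). Its share of calls, 16.2%, was below the 31.2% of all tested genes. The largest difference of the list was that of the core subunit Psma3 (-0.36 ± 0.07). Psme4, a proteasome activator and 1 of the 3 higher, was at 0.23 ± 0.08 (adjusted p = 0.036), while its other probe sets gave 0.26 (adjusted p = 0.0837) and -0.50 (adjusted p = 0.04), so its direction is unsettled.

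Secreted plasma proteins were lower in 24 of 48 tested genes for the acute phase, complement and coagulation and higher in 0 in limma (2 at an unadjusted p under 0.05), with a median of -0.15. Mbl2, a mannose-binding lectin that starts complement, went from 15434, 15743, 16162, 16334 and 16674 to 6456, 6787, 6999, 7585 and 8281. This gap was wide compared with the spread (-1.16 ± 0.06, adjusted p = 8.19e-16), although another of its probe sets gave a smaller called difference, -0.55. Klkb1, plasma prekallikrein, was lower, at -1.25 ± 0.15, the Mbl2 relative Mbl1 at -0.73 ± 0.09 and C-reactive protein, Crp, at -0.80 ± 0.12. The fibrinogen chains Fga (-0.03), Fgb (0.06) and Fgg (-0.01) and haptoglobin, Hp (0.08), which acute phase signals raise, were not called.

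Genes that interferon induces were split, with 6 of 21 lower and 2 higher (median -0.13). The antiviral GTPase Mx2 gave 1952, 2058, 2201, 2306 and 3763 at 500 µM and 785, 1078, 1379, 1465 and 1502 at 5000 µM. One 500 µM array was well above the others, yet the groups did not overlap (-0.98 ± 0.20, adjusted p = 0.000258). The other probe set of Mx2 gave -0.44 with an adjusted p of 0.413. Rsad2 (-0.96 ± 0.18), the ubiquitin-like Isg15 (-0.93 ± 0.18) and the 2-5A synthetase Oas1a (-0.89 ± 0.12) were lower, and Irf7 was higher (0.50). In the NF-kB list, 5 of 17 were lower and 2 higher, with a median of 0.03 whose sign turned under 5 alternatives and without replicate 4 of 5000 µM (-0.01) or replicates 2 (-0.03) or 4 (-0.02) of 500 µM. Below the ratio gap, 3 were lower and 1 higher. Nfkbiz (-0.63 ± 0.12) and the adhesion receptor Icam1 (-0.61 ± 0.13) were lower. Cxcl10, a chemokine, was at 0.58 ± 0.17 and lost its call within the arrays below the ratio gap. The summed signal of the Kupffer cell and leukocyte markers, given above, was also lower at 5000 µM in every array. Most of that sum came from its 3 tested members, and the sums of its 18 dim members overlapped between the doses. The part of these cells in the values of this paragraph was not tested.

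Regulators of liver identity were called in 12 of 27 cases, 8 lower and 4 higher (median -0.11). After median centring, 7 were lower and 1 higher. Nr1i3, the constitutive androstane receptor that controls drug metabolism, read 3628, 3739, 3862, 4005 and 4524 at 500 µM and 1910, 1938, 2170, 2225 and 2390 at 5000 µM (-0.89 ± 0.09, adjusted p = 9.6e-10), with a clear gap. Onecut2, a homeodomain factor of liver development, was higher by 0.71 ± 0.09. Hnf4a (-0.12) and Cebpa (0.04), central to the adult hepatocyte, were not called. Of 13 clock genes 3 were lower and 2 higher (median 0.01), and 3 were lower and 0 higher after median centring. Npas2 (-0.58 ± 0.10) and Bhlhe40 (-0.43 ± 0.08) were among the lower ones, and Bmal1 was at -0.05.

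In the list of cytoskeletal and matricellular genes, which rise as cultured hepatocytes flatten, 7 of 31 were lower and 3 higher (median 0.00). Calls made up 32.3% of the list, close to the 31.2% of all tested genes. S100a6, a calcium-binding protein, was lower, at -0.72 ± 0.12, Tagln2 at -0.71 ± 0.11 and the tropomyosin Tpm1 at -0.53 ± 0.05, with the Tpm1 call lost when its probe sets were averaged. Keratins Krt8 (0.10) and Krt18 (0.13) were not called. Of 10 genes for metal handling, 5 were lower and 0 higher in limma (0 at an unadjusted p under 0.05), with a median of -0.13, and 3 were lower within the arrays below the ratio gap. They were transporters, led by the manganese exporter Slc30a10 (-0.50 ± 0.10), and ceruloplasmin, Cp (-0.35 ± 0.08), while metallothionein Mt2A was at 0.09 and not called.

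Several of the largest changes belong to none of these lists. Apeg3, named as the antisense transcript of the imprinted gene Peg3, went from 2110, 2199, 2430, 2515 and 2587 at 500 µM to 4771, 6546, 7371, 7678 and 7800 at 5000 µM (1.51 ± 0.12, adjusted p = 1.88e-11). Other probe sets of Apeg3 gave 0.80 (adjusted p = 0.000483), 0.53 (adjusted p = 0.597) and 1.35 (adjusted p = 0.23). Prnp, the prion protein, went from 6070, 6938, 7176, 7689 and 7948 to 13324, 14792, 15177, 15714 and 16304 (1.08 ± 0.07, adjusted p = 2.33e-13). Both rises left a wide space between the groups. Tbc1d16, an activator of Rab GTPase hydrolysis, was higher by 1.35 ± 0.11, the membrane protein gene Smim29 by 1.18 ± 0.15, the tyrosine phosphatase Ptpn18 by 1.15 ± 0.12, the thrombin receptor F2r by 1.10 ± 0.11 and the amino acid exchanger Slc7a6 by 1.08 ± 0.14. The 500 µM means of Tbc1d16 (440 ± 44.5) and F2r (421 ± 45.5) are below 469.2, so the sizes of these rises depend on the background. On the falling side, Poteml2 gave 11784, 12312, 13380, 14539 and 14836 at 500 µM and 2050, 2427, 2560, 2902 and 3159 at 5000 µM (-2.36 ± 0.10, adjusted p = 2.09e-18). The olfactory receptor gene Olr59 (-2.66 ± 0.35) and the zinc finger gene Znf750 (-1.75 ± 0.21) were lower too, with 5000 µM means of 250 ± 157 and 270 ± 76.9 that are below the tested range.

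In the same dose comparison at 48 h, 4064 genes (47.6%) were called, and 1851 (21.7%) differed in their dose effect between the times. Of the 40 largest, oppositely called and fixed genes, 32 were called at 48 h and 14 differed between times. Most of these 40 were chosen by their 24 h values, and the test between times uses the same 24 h arrays. Smaller differences at 48 h are therefore favoured by the choice. Inhbe was -2.98 at 48 h against -2.77 at 24 h, Hamp 1.89 against 1.69, Hexim1 1.61 against 1.45 and Cyp7a1 -2.03 against -2.08, and none of these 4 differences between times passed the test. Of the 40 genes, Sult2a6 changed most between the times, from -2.61 to -0.34 (difference 2.27 ± 0.33, adjusted p = 1.98e-05). The 2-hydroxy acid oxidases followed, Hao2 from -1.77 to -0.30 (adjusted p = 2.82e-07) and Hao1 from -1.87 to -0.58 (adjusted p = 1.06e-05).

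Of the 35 tested PPAR-alpha targets and oxidation genes, 15 were higher and 7 lower in the dose comparison at 48 h (median 0.16), and 17 differed between times, 14 of them with the 48 h difference above that at 24 h. Fabp1 went from -1.80 to -0.57 (adjusted p = 1.86e-11), Ehhadh from -1.14 to -0.16 (adjusted p = 0.000219), and Cyp4a1 turned from -0.87 to 0.40 (adjusted p = 1.83e-06). Fgf21, at -1.63 and -1.19, did not pass the test of the difference between times (adjusted p = 0.15). Lamc1 went from 0.73 to -0.13. The actin ratio bears on this comparison, since all 5 of the 500 µM arrays at 48 h lay above the gap and all 5 of the 5000 µM arrays below it, so dose and ratio cannot be told apart within 48 h. With the ratio as a covariate over all groups, 1782 genes were called at 48 h and 905 differed between times, and the 14 genes were all still called.

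**Figure D5:**
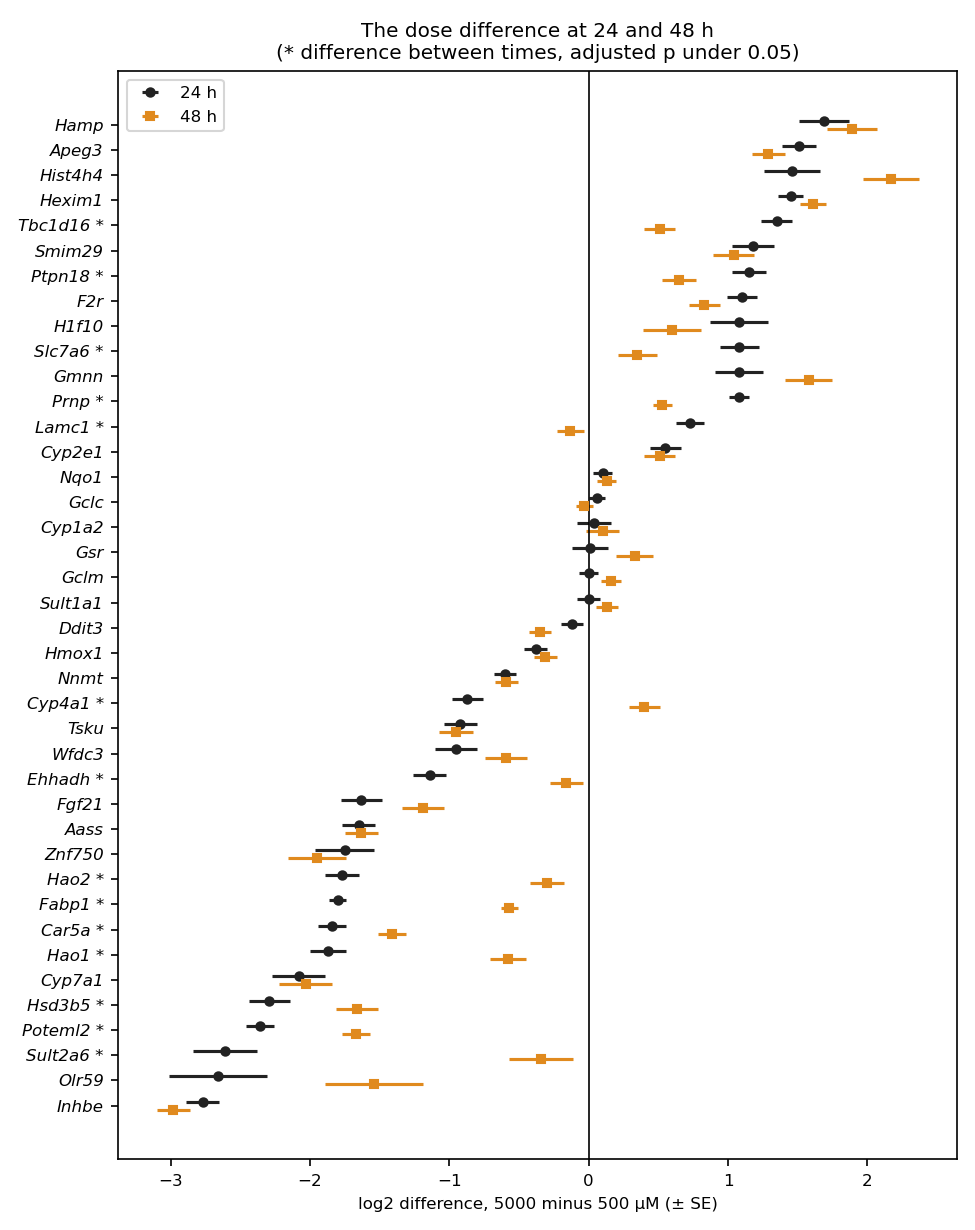
Log2 difference with its standard error, 5000 minus 500 µM, at 24 h (black circles) and 48 h (orange squares) for the 40 genes compared between times; a star marks the 14 that differed between times. Inhbe, Cyp7a1, Hexim1 and Hamp keep their place, whereas Sult2a6, Hao1, Hao2, Fabp1 and Ehhadh move towards 0 and Cyp4a1 crosses it. Most of the genes were chosen by their 24 h values, which favours smaller differences at 48 h.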

How the data were processed

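The deposited values are linear MAS5 signal intensity values, 1 per probe set, made by the authors with MAS5, per the submitters' processing notes; how they were scaled is not stated there. Since 2% trimmed means lay between 1500.55 and 1500.66 on every array, the values were used as deposited, as log2 signal with no offset. Of 31099 probe sets, 57 were controls, 20826 had 1 symbol in the platform annotation (20758 matched RefSeq), 436 had several and 9780 were unnamed here. Each gene took its brightest probe set over all arrays, and the brightest 60% were tested. All 30 arrays entered 1 limma model (3.58.1, R 4.3.3) of the 6 group means, with an intensity trend in eBayes (24 residual and 7.58 prior degrees of freedom), and p-values were Benjamini-Hochberg adjusted over 8531 genes. Errors of differences are standard errors and those of signals are SD, n = 5. The script was tested on simulated data. The number of arrays limits the precision.

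The members and the 36 gene lists (1157 symbols, 862 tested) were chosen with earlier results of these data known. Named genes were the 12 largest rises and falls without overlap between doses, up to 4 called members per list with 5 or more tested, 6 oppositely called genes and a fixed set; further list members were named after their values were seen. Alternatives were other scalings, filters, offsets, probe set rules, empirical Bayes settings, array weights, the actin ratio as covariate, block or subset, the round of running numbers, and leaving out each array.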

Additional observations from a re-analysis of the deposited data

Results flagged for a closer look

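Of 82 groups of 5 arrays examined among the 40 genes and the actin ratio, 8 held an array far from the other four, and chance alone gives about 1 in 20. These were the highest 5000 µM array of Tbc1d16 (1388), the highest 500 µM array (2789) and the lowest 5000 µM array (144) of Sult2a6, the lowest 500 µM arrays of Aass (5919) and Tsku (7133), the highest 500 µM array of Fgf21 (6396), the lowest 5000 µM array of Gsr (10470) and the highest log2 actin ratio at 5000 µM (1.76). Each of the differences between doses called for these genes was also called without any single array of either dose; Gsr was not called.

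The dose difference changed between the times for 14 of the 40 genes (limma interaction, adjusted over all tested genes). Most of the 40 were chosen by their values at 24 h, and the interaction uses the same 24 h arrays. That choice favours smaller differences at 48 h. Given as the 48 h minus the 24 h difference, the rises at 24 h that were smaller or, for Lamc1, no longer called at 48 h were Tbc1d16 (-0.84), Slc7a6 (-0.73), Prnp (-0.54), Ptpn18 (-0.49) and Lamc1 (-0.86). The falls that were smaller or, for Cyp4a1, turned to a rise at 48 h were Sult2a6 (2.27), Hao2 (1.47), Hao1 (1.29), Cyp4a1 (1.27), Fabp1 (1.23), Ehhadh (0.98), Poteml2 (0.69), Hsd3b5 (0.63) and Car5a (0.43). Those of Car5a, Hsd3b5 and Ptpn18 were lost under at least 1 alternative.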

How the results depend on the processing

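Of 133 named genes called between the doses at 24 h, 109 kept their call and direction under every alternative run, leave-one-out fits included, and 24 lost the call at least once; of the 133, only Psme4, a proteasome activator, turned, to 0.00 when a gene's probe sets were averaged. Among called genes named after their values were seen, 36 were followed through the alternatives. Of these 36, 31 kept the call, and Oat, Id2, Brd2, Larp7 and Iars1 did not. The count of calls, 2659, stayed within 1.5 times, with 2392 to 2626 when a 24 h array of either dose was left out. Median centring took the genes called higher to 592. The count for 500 µM against vehicle was 51 with median centring, 31 with arrays above the ratio gap, 100 with only the groups compared, 447 with the side of the gap as block, and 116 to 290 when 1 array was left out. The 48 h count was 1782 with the ratio as covariate and 2021 with the gap as block, and the count for the difference between times was 905, 1043 and, with median centring, 750. The cause was not tested. The p53 list median was -0.04 with the brightest 40% of genes. The NF-kB list median was -0.02 with array weights, -0.05 with median centring, -0.07 below the gap, -0.03 with quantile normalization, -0.02 with the gap as block and -0.03 to 0.05 when 1 array was left out. The running numbers in the titles pass through the 6 groups in 5 rounds, and no label says what a round is. In rounds 1 to 5, the deviations of the 500 and 5000 µM arrays from their group means correlated over genes at 0.43, 0.07, -0.32, 0.42 and 0.20. Of the 10 arrays, 4 were closest to the array of their own round. At 24 h, the vehicle and 500 µM arrays of rounds 1 to 3 lay above the ratio gap and those of rounds 4 and 5 below it. The main fit did not pair the rounds, and these values do not settle whether they are pairs. With the round as a replicate block, 2827 genes were called between the doses at 24 h, 1528 higher and 1299 lower, 322 for 500 µM against vehicle, 4212 at 48 h and 2059 for the difference between times. The actin ratio was lower at 5000 µM in 5 of 5 rounds (mean -0.24, 2-sided exact sign-flip permutation p = 0.0625, the smallest that 5 rounds can give). A fit with only arrays above the gap was not run for the doses at 24 h, since 1 array of 5000 µM lay there. Centring on tested genes and the rounds were chosen after seeing the data. Genes with a geometric mean signal over all arrays below 469.2 were not tested, and fold changes near that level depend on the background.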
